A study of Mus musculus with 3 samples.

Results

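The T-box, paired (PAX), NK, LIM, sine oculis and TALE genes encode DNA-binding regulators that set regional and cell identity in the embryo, and 57 of them were measured here with 80 probes. They were taken from the 20659 named genes on the array (39429 probes in all) by symbol alone, as every numbered Tbx, Pax, Nkx, Lhx, Meis and Pbx gene and the numbered sine oculis genes. The set holds 13 T-box, 10 PAX, 13 NK, 8 LIM, 6 sine oculis, 3 MEIS and 4 PBX genes, and Pax6os1, an antisense transcript of the Pax6 locus, is counted with PAX. The probes were read on 3 single-colour arrays, each carrying RNA pooled from 5 samples of female mouse cells. The iHep array held cells derived from fibroblasts of SiO2-remodelled mouse spleens after transduction with a lentivirus named LV-3TF. The PH array held primary hepatocytes measured fresh after isolation, which served as the positive control. The MF array held the same kind of spleen fibroblasts given the control lentivirus LV-NC. iHep and MF were both collected 14 days after transduction, so both had been cultured and transduced and PH had not. The labels do not say which factors LV-3TF carries, which promoter drives them, or the strain and age of the mice. Each group has 1 array, so no difference below has a replicate check or a test, and "higher" and "lower" describe these arrays.

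T-box proteins bind DNA through the domain named for the Brachyury gene, PAX proteins through a paired domain, and the NK, LIM, sine oculis and TALE proteins through variants of the homeodomain. Most are switched on in restricted embryonic fields, such as limb mesenchyme, heart, kidney, pancreas or forebrain, and many keep part of that positional pattern in adult fibroblasts. MEIS and PBX proteins differ from the rest in being broadly expressed partners of HOX proteins. In the liver, Tbx3 acts in the growth of hepatoblasts, and Lhx2 is known for holding hepatic stellate cells in their quiescent state. Nkx2-5 and Nkx3-2 act in the embryonic field that forms the spleen.

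Promoter sequence was available from RefSeq (build GRCm38.p6) for 44 of the 57 genes. The 250 bases upstream of the start site are printed for 6 genes, chosen after their values were seen because they show the main patterns described below, with each CpG dinucleotide in capitals and all other bases in lower case, 5′ to 3′ on the strand of the gene. Pax8 (chr2:24475600-24475849, minus strand) and Pax9 (chr12:56695221-56695470, plus strand) were read highest on the iHep array. Tbx4 (chr11:85896515-85896764, plus strand) and Tbx18 (chr9:87731261-87731510, minus strand) were present on the iHep and MF arrays and low or not above background on PH. Lhx8 (chr3:154330561-154330810, minus strand) was above background on the MF array alone, and Tbx21 (chr11:97115332-97115581, minus strand) on the PH array alone.
Pax8: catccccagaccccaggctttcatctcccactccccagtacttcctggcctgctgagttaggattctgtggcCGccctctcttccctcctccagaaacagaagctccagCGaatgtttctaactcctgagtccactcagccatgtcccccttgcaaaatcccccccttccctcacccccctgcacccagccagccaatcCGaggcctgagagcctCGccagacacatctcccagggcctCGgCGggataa
Pax9: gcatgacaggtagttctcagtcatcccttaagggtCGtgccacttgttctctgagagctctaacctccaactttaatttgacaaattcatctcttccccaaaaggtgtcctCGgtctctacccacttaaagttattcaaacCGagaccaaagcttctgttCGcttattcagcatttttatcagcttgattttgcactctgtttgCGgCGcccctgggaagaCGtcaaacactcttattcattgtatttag
Tbx4: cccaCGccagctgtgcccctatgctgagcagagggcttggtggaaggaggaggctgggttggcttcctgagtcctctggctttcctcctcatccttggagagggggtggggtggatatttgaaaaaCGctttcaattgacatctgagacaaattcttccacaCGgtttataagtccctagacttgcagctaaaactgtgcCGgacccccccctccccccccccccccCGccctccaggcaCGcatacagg
Tbx18: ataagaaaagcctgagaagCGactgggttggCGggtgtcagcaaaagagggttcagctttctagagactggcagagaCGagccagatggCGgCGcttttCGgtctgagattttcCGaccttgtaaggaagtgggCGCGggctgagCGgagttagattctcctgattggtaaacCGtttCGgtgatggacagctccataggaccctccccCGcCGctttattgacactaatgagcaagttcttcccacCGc
Lhx8: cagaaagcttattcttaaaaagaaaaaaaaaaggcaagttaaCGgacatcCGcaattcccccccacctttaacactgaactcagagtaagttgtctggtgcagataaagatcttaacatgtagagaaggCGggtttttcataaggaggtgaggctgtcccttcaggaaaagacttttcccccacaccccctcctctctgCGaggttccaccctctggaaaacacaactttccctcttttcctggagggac
Tbx21: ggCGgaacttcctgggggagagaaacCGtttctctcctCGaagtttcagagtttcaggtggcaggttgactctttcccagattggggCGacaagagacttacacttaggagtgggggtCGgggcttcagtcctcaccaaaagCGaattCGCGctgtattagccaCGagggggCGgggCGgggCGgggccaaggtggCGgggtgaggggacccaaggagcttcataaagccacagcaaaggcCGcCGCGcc

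Where RefSeq gives a gene several start sites, the counts that follow use 1 window, the first in the order of its table. The 6 windows differ in CpG content. Tbx21 holds 16 CpGs and Tbx18 holds 15, against 7 in Pax9, 6 each in Pax8 and Tbx4, and 4 in Lhx8. Over the 44 genes the median was 13 CpGs per window, with a range of 1 to 33, against a median of 6 over all 27025 genes of the promoter table. At least 10 CpGs were found in 30 of the 44 (68.2%), against 38.2% of all genes. Of the 44, the 22 genes read highest on PH had a median of 15 CpGs and the 9 read highest on MF a median of 13, while the 9 read highest on iHep had a median of 7. Gene numbers are small, and the windows say nothing of methylation, which was not measured.

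**Figure D1:**
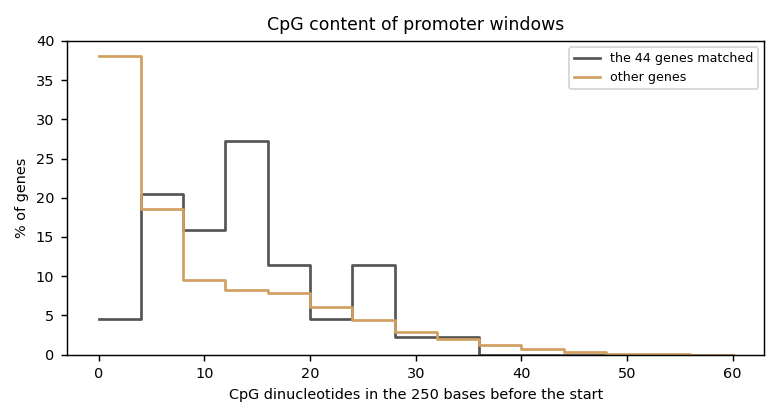
CpG dinucleotides in the 250 bases upstream of the start site (horizontal axis, count per window) against the percentage of genes (vertical axis), for the 44 genes with a RefSeq promoter and for the other genes of the table. The line of the 44 genes peaks further right, and their median of 13 compares with 6 over all genes.

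Short motifs that members of these families are known to bind were searched on both strands of the same windows. The MEIS motif TGACAG was found in the windows of 10 of 44 genes (22.7%), against 16% of all genes. The T-box motif AGGTGTGA was found in 0 of 44, against 1.14% of all genes, and the NK2 motif CACTTAA in 1 (2.27%), against 2.10%. That 1 gene was Pax9, whose window also holds TGACAG; no match overlapped a match of another motif. Windows at other start sites, which were not counted, hold CACTTAA for Lhx6 and TGACAG for Pax6. A match is a run of letters in a window and not a measured binding site.

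Levels are given as log2 of the background-subtracted signal minus the 75th percentile of its array, so that level 0 is that percentile. The percentile was an intensity of 3751.5 on iHep, 2080.9 on PH and 544.3 on MF, so MF was the dimmest array. A single scan covered iHep and PH, and another covered MF, so scan and group cannot be told apart wherever MF is compared. Repeated spots within each array gave log2 differences an SD of 0.12 (iHep against MF) to 0.13 (the comparisons with PH). That spot error leaves out variation between arrays, such as labelling, hybridization and scan. Between distinct probes of 1 gene the SD was 0.85 when iHep was set against MF, 1.11 when PH was set against MF, and 1.09 when iHep was set against PH. The threshold used for counting, 2-fold or 1 on the log2 scale, is similar in size to that spread. A difference in which just 1 side was well above background is given as a bound, written "at least". The dim side then entered at its own reading or, if that was lower, at the lowest level its array called well above background, which was -7.32 on iHep, -6.89 on PH and -6.30 on MF. In bulk RNA, fewer cells of a type and less RNA per cell cannot be told apart.

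The labelled cell types were checked against marker lists. All 10 hepatocyte markers were above background on PH with a summed log2 level of 9.08, and 9 of 10 on iHep with a sum of 1.57, against 6 of 10 on MF with a sum of -1.60. The iHep sum came mainly from Hnf4a, a liver transcription factor, at 1.04 on iHep, 6.0 on PH and -5.62 on MF. Of 9 hepatocyte markers compared, 3 were at least 2-fold higher on iHep than on MF and 0 lower. The apolipoprotein Apoa1 was not above background on iHep, and Alb, the gene of serum albumin, was at -4.75 on iHep, 6.67 on PH and -5.20 on MF. Fibroblast markers summed to 5.54 on iHep (9 of 10 above background, all but Lum), 5.50 on PH (10 of 10) and 9.13 on MF (10 of 10). The PH array also carried markers of cells other than hepatocytes, with 6 of 6 pancreatic acinar genes summing to 8.39 against -1.20 on MF, and 9 of 9 macrophage genes to 6.63 against 6.40 on MF. The 6 endothelial markers were all above background on PH with a sum of 5.23, against -0.43 on MF with 5 of 6. On iHep the macrophage sum was -1.51 with 6 of 9 above background, C1qa, C1qc and Lyz2 not among them, and the endothelial sum was -0.72 with 3 of 6.

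Of the 57 genes, 42 were above background on iHep, 42 on PH and 36 on MF. The shares of 73.7%, 73.7% and 63.2% were below those of all named genes, at 79.6%, 84.2% and 73.0%. All 3 arrays read 28 of the genes above background, against 13997 of the 20659 named genes. On none of the arrays were 5 above background, against 2375 of the named genes. Those 5 include Lhx4, the pituitary factor, Nkx2-1, the thyroid and lung factor, and the eye-field genes Six3 and Six6. Lhx5, Pax6 and Pax9 were above background on iHep alone, as were 420 of the named genes. Lhx8, Pax1 and Tbx5 were so on MF alone, as were 201 of the named genes. Nkx6-2, Pax4, Six2, Tbx1, Tbx19 and Tbx21 were above background on PH alone, as were 1029 of the named genes. Among the 51 genes whose main probe was above background somewhere, the highest level was on iHep for 11 (21.6%, against 28.5% of all genes), on PH for 25 (49.0%, against 42.1%) and on MF for 15 (29.4%, against 29.4%).

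**Figure D2:**
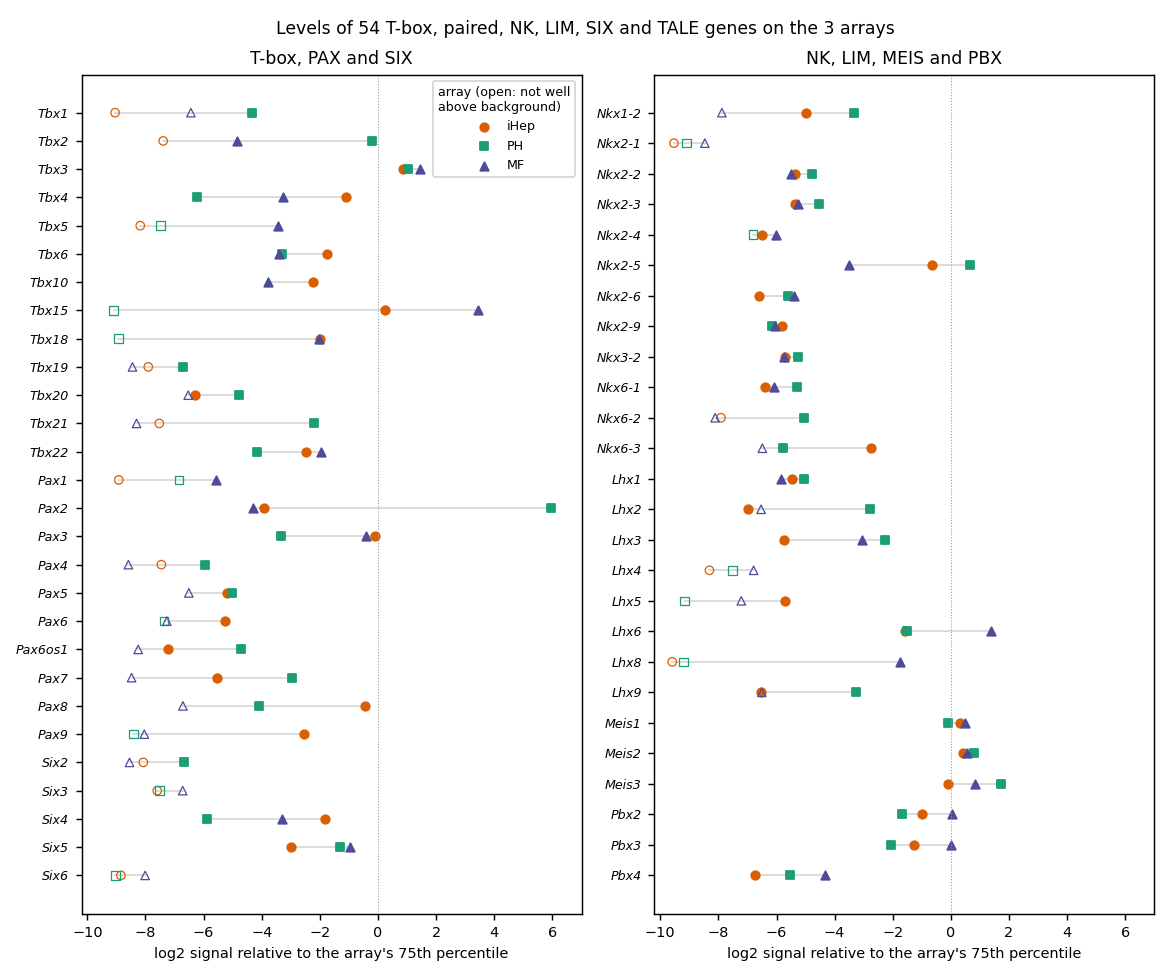
Level of 54 of the 57 genes on the 3 arrays (horizontal axis, log2 relative to the 75th percentile of the array), grouped by family, with a filled symbol where the probe was well above background and an open symbol where it was not. The wide gaps between symbols at Tbx15, Pax2, Tbx2 and Lhx8 stand beside the near overlap at Tbx3, Meis1 and Meis2.

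Between iHep and MF, 44 of the 57 genes could be compared; of the rest, 11 were above background on neither array and 2 through another probe than the main one. Of these 10 were at least 2-fold higher on iHep (22.7%, against 20.0 percent of all genes compared) and 13 at least 2-fold lower (29.5%, against 23.3 percent), with a median log2 difference of -0.06 against 0.00 over all genes. Between PH and MF, 12 of 46 were higher on PH (26.1%, against 30.9 percent) and 14 lower (30.4%, against 25.4 percent), with a median of 0.15 against 0.05. Between iHep and PH, 13 of 48 were higher on iHep (27.1%, against 23.2 percent) and 20 lower (41.7%, against 35.9 percent), with a median of -0.52 against -0.30. An alternative, normexp background correction, models the background and adds an offset of 50 to the signal of every spot. Under normexp the split between iHep and MF was 3 higher and 20 lower, against 11.9% higher and 30.4% lower over all genes. The offset was the same on each array, while the median intensity was 255.8 on iHep, 261.4 on PH and 44.2 on MF. The part of the offset in that split was not tested. In the main setting each share lay near that of all genes, so these counts are not a result about the families. What follows is which members differed and in which pattern.

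**Figure D3:**
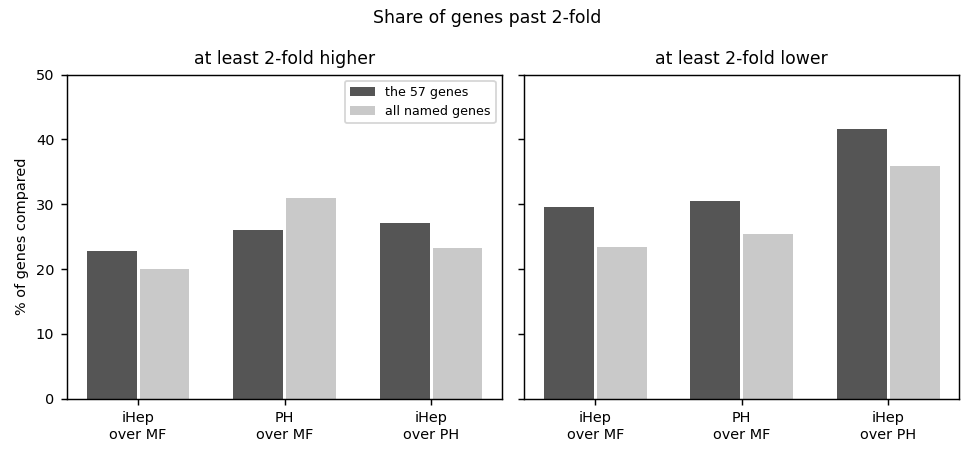
Percentage of compared genes (vertical axis) that were at least 2-fold higher (left panel) or lower (right panel) in each comparison, for the 57 genes and for all named genes. Each dark bar stands close to the pale bar beside it, as with 22.7% against 20.0% for genes higher on iHep than on MF.

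Between iHep and MF, 3 of 10 T-box genes were at least 2-fold higher on iHep and 3 lower (all genes: 20.0% and 23.3%). Between PH and MF, 4 of 12 were higher on PH and 5 lower (all genes: 30.9% and 25.4%). Between iHep and PH, 5 of 11 were higher on iHep and 4 lower (all genes: 23.2% and 35.9%). Tbx15, a factor of skeletal, dermal and adipose mesenchyme, had a level of 0.25 on iHep, -9.09 on PH, where it was not above background, and 3.44 on MF. It was 9.13-fold lower on iHep than on MF, at least 1288-fold lower on PH than on MF, and at least 141-fold higher on iHep than on PH. Of the 3 arrays, MF and iHep thus read Tbx15 above background, with iHep the lower of the pair.

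Tbx18, a factor of the epicardium, ureter mesenchyme and somites, was at -1.98 on iHep, -8.93 on PH, not above background, and -2.04 on MF. The iHep and MF readings differed by 1.04-fold, within the spot error, and iHep was at least 30.1-fold higher than PH. Tbx4, which acts in hindlimb and lung mesenchyme, was at -1.11 on iHep, -6.21 on PH and -3.25 on MF. Its highest reading was on iHep, 4.42-fold above MF and 34.5-fold above PH. Under normexp the log2 differences of iHep over PH were smaller, at 2.76 for Tbx18 and 3.55 for Tbx4.

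Tbx22, a palate factor, was also lowest on PH, at -2.49 on iHep, -4.16 on PH and -1.95 on MF. It was 3.19-fold higher on iHep than on PH and within 2-fold of MF. Tbx5, the forelimb and heart factor, was instead above background on MF alone, at -3.45, with -8.18 on iHep and -7.48 on PH. The difference was at least 14.7-fold for iHep and at least 10.9-fold for PH. Of the 10 fibroblast markers given above, 10 were at least 2-fold lower on iHep than on MF, while on PH 8 were lower and 2, Lum and Dcn, higher. Dcn was at -5.45 on iHep, 3.76 on PH and 2.71 on MF, and the part of these markers in the T-box readings was not tested. In mouse, Tbx4 and Tbx5 are close paralogues that act in hindlimb and forelimb, and here their readings on iHep and MF ran in opposite directions.

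A separate group of T-box genes was highest on PH. Tbx2, a transcriptional repressor of developing heart and lung, was at -7.39 on iHep, not above background, -0.20 on PH and -4.86 on MF. It was 25.4-fold higher on PH than on MF, and at least 140-fold lower on iHep than on PH, with log2 differences of 2.79 and -5.31 under normexp. Tbx3, its closest relative, was at 0.85 on iHep, 1.02 on PH and 1.44 on MF, and the arrays differed by 1.13-fold to 1.5-fold.

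Tbx21, also called T-bet, the factor of type 1 helper T cells and natural killer cells, was at -7.52 on iHep, -2.21 on PH and -8.31 on MF, and above background on PH alone. It was at least 34.6-fold lower on iHep than on PH, and PH was at least 17.1-fold higher than MF, or 1.03 on the log2 scale under normexp. The 10 T and NK cell markers were above background in 5 of 10 on iHep, 10 of 10 on PH and 4 of 10 on MF, with summed log2 levels of 2.43, 6.06 and 1.40. Each sum came mainly from Cd4, at 1.86 on iHep, 5.69 on PH and 0.69 on MF. Cd3d, Cd3g, Ncr1, Klrb1c and Ifng were not above background on iHep or MF. Of 5 markers compared between iHep and MF, 3 were at least 2-fold higher on iHep and 0 lower. Between PH and MF, 9 of 10 were higher on PH and 0 lower. The part of such cells in the Tbx21 reading was not tested.

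Tbx20, a cardiac factor, was at -6.30 on iHep, -4.77 on PH and -6.53 on MF, not above background on MF, and was 2.89-fold lower on iHep than on PH, with a log2 difference of -0.44 under quantile normalization. The heart muscle list was above background in 4 of 7 genes on iHep, 6 of 7 on PH and 5 of 7 on MF, with summed levels of 1.72, -1.65 and -1.68, and Actc1, the cardiac actin, was above background on none. The summed level on iHep came mainly from Tnnt2, at 1.68 on iHep, -4.50 on PH and -3.59 on MF. Of 5 list genes compared between iHep and MF, Tnnt2 alone was at least 2-fold higher on iHep. The 3 lower genes were Myh6, Myl2 and Tnni3. The part of this list in any member's reading was not tested. Tbx1, a pharyngeal and outflow tract factor, was above background on PH alone, at -4.33, with -9.05 on iHep and -6.44 on MF. Tbx19, a pituitary factor, was above background on PH alone too, at -6.70, with -7.90 on iHep and -8.45 on MF. Tbx6, a factor of presomitic mesoderm, and Tbx10 were higher on iHep than on MF, by 3.14-fold and 2.89-fold, though a second Tbx6 probe was at -2.94 on iHep against -3.54 on MF, and the Tbx10 spot on PH was left out as an outlier.

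For iHep against MF, 4 of 9 PAX genes were at least 2-fold higher on iHep and 1 lower (all genes: 20.0% and 23.3%). For PH against MF, 5 of 8 were higher on PH and 2 lower (all genes: 30.9% and 25.4%). For iHep against PH, 4 of 9 were higher on iHep and 4 lower (all genes: 23.2% and 35.9%). Pax8, the factor of thyroid and kidney epithelium, was at -0.44 on iHep, -4.10 on PH and -6.71 on MF, not above background on MF. It was at least 58.3-fold higher on iHep than on MF and 12.6-fold higher than on PH. Under normexp the log2 difference of iHep over MF was 2.77, and PH over MF gave no bound. Pax9, a factor of tooth and pharyngeal pouch, was at -2.55 on iHep and not above background on PH at -8.42 or on MF at -8.04. It was at least 13.5-fold higher on iHep than on MF and at least 20.2-fold higher than on PH, and the other probe also read it above background on iHep alone, at -5.45. The log2 difference of iHep over MF for Pax9 was 0.90 under normexp and 0.87 in the authors' deposited table of values. That table covers fewer probes and the brightest was chosen again from it, so its value may come from the other probe. In the main setting the bound of the other probe was 0.86 on the log2 scale.

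The Pax8 reading on iHep stood beside a kidney tubule list with 5 of 7 genes above background on iHep, 6 of 7 on PH and 4 of 7 on MF, with summed levels of 1.49, -1.03 and -1.23. The cadherin Cdh16 was at 1.37 on iHep, -4.64 on PH and -4.22 on MF. Lrp2, the endocytic receptor megalin, ran the other way, at -7.24 on iHep, -2.96 on PH and -1.85 on MF. Umod and Slc12a1, which mark the thick ascending limb, were not above background on iHep. In the lung and thyroid list 3 of 6 genes were above background on iHep, 5 of 6 on PH and 3 of 6 on MF, summing to -2.27, -1.11 and -2.54. The part of such programmes in the Pax8 reading was not tested.

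Pax2, a kidney and hindbrain factor, showed the widest difference among members measured on both arrays of a comparison. Its main probe was at -3.91 on iHep, 5.96 on PH and -4.29 on MF, which was 1219-fold higher on PH than on MF and 938-fold lower on iHep than on PH. The other Pax2 probe was above background on none of the arrays, at -7.81 on iHep, -7.18 on PH and -6.19 on MF, so the difference rests on 1 probe. With the mean of both probes the log2 difference of PH over MF was 4.64. The acinar list, with 6 of 6 genes above background on PH and a sum of 8.39 against -0.46 on iHep and -1.20 on MF, was high on the same array, and its part in the Pax2 reading was not tested.

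Pax3, a factor of neural crest and muscle progenitors, was at -0.11 on iHep, -3.32 on PH and -0.43 on MF. It was 9.25-fold higher on iHep than on PH and within 2-fold of MF, and the other probe gave -3.20 on iHep, -7.56 on PH, not above background, and -2.65 on MF. Pax7, its paralogue and a marker of muscle satellite cells, was at -5.53 on iHep, -2.96 on PH and -8.48 on MF, not above background on MF. It was 5.94-fold lower on iHep than on PH, the opposite order to Pax3, and its bound for PH over MF was at least 10.2-fold, or 0.74 on the log2 scale under normexp. The skeletal muscle list was above background in 5 of 6 genes on iHep, 3 of 6 on PH and 2 of 6 on MF, with sums of -2.33, -1.59 and 3.22. The MF sum came from the actin Acta1 alone, at 3.22 on MF, while Myod1 was at -5.52 there and Myog, Myf5, Myh4 and Ckm were not above background. The part of this list in either reading was not tested.

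The remaining PAX genes gave low readings. Pax5, the B cell identity factor, was at -5.20 on iHep, -5.01 on PH and -6.51 on MF, and not above background on MF. Its bounds over MF were at least 2.14-fold on iHep and at least 2.45-fold on PH, and under normexp neither gave a bound. The B cell list was above background in 5 of 8 genes on iHep, 8 of 8 on PH and 5 of 8 on MF, summing to -1.56, 1.22 and -2.84, and its part in the Pax5 reading was not tested. Pax6, the eye and islet factor, was at -5.27 on iHep, -7.37 on PH and -7.27 on MF, above background on iHep alone and at least 2.05-fold above MF, with no bound under normexp. Pax1, a factor of the embryonic vertebral column, was above background on MF alone, at -5.59, with -8.92 on iHep and -6.84 on PH. Pax4, an islet factor, was above background on PH alone, at -5.94, with -7.45 on iHep and -8.59 on MF. Pax6os1 was at -7.24 on iHep, -4.72 on PH and -8.25 on MF, not above background on MF and 5.73-fold lower on iHep than on PH.

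Between iHep and MF, 2 of 9 NK genes were at least 2-fold higher on iHep and 1 lower (all genes: 20.0% and 23.3%). Between PH and MF, 2 of 10 were higher on PH and 0 lower (all genes: 30.9% and 25.4%). Between iHep and PH, 1 of 11 was higher on iHep and 5 lower (all genes: 23.2% and 35.9%). Nkx2-5, a heart and spleen-field factor, was at -0.65 on iHep, 0.67 on PH and -3.50 on MF, that is 7.19-fold higher on iHep than on MF and 18.0-fold higher on PH than on MF. Under normexp its log2 difference of iHep over MF was 1.96. Nkx6-3, a stomach factor, was at -2.76 on iHep, -5.78 on PH and -6.49 on MF, and not above background on MF. It was 8.11-fold higher on iHep than on PH and at least 11.7-fold higher than on MF. The other probe read Nkx6-3 above background on iHep but not on PH or MF. Its level there, -7.23, was near the lowest that array called well above background, -7.32. Under normexp the log2 difference of iHep over MF was 0.54.

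The other NK genes of the spleen field gave low readings that differed by less than 2-fold. Nkx2-3, a factor of spleen and gut mesenchyme, was at -5.38 on iHep, -4.55 on PH and -5.25 on MF, and Nkx3-2 at -5.70 on iHep, -5.26 on PH and -5.74 on MF. Under normexp, with its offset of 50, their log2 differences of iHep over MF were -1.50 and -1.61, against -0.13 and 0.05 in the main setting. Before that offset, Nkx2-3 had an intensity of 90.3 on iHep and 14.3 on MF, and Nkx3-2 of 72.4 and 10.2. The MF intensities were thus below the offset, and its part in the normexp differences was not tested. Nkx6-1, a beta cell factor, was at -6.39 on iHep, -5.28 on PH and -6.10 on MF, 2.16-fold lower on iHep than on PH, an order that was lost under quantile normalization (log2 difference 0.0021). In the pancreas islet list 5 of 8 genes were above background on iHep, 7 of 8 on PH and 2 of 8 on MF, summing to -0.91, 2.19 and -1.43, and its part in the Nkx6-1 reading was not tested. Nkx2-2 and Nkx2-9, which act in the neural tube among other places, differed by less than 2-fold in each comparison. Nkx2-4 was at -6.48 on iHep, -6.82 on PH, not above background, and -6.0 on MF, 1.40-fold lower on iHep than on MF, and its comparisons with PH gave bounds. Nkx2-6, a pharyngeal factor, was at -6.61 on iHep, -5.60 on PH and -5.39 on MF, 2.33-fold lower on iHep than on MF. Nkx6-2, a neural factor, was above background on PH alone, at -5.05, with -7.91 on iHep and -8.11 on MF. Nkx1-2 was 3.11-fold lower on iHep than on PH by its main probe, at -4.97 on iHep and -3.33 on PH. Another probe was at least 2.56-fold higher on iHep than on PH, so the Nkx1-2 order depends on the probe. That probe, and not the main one, read Nkx1-2 above background on MF, so no difference from MF is given.

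For iHep against MF, 0 of 6 LIM genes were at least 2-fold higher on iHep and 3 lower (all genes: 20.0% and 23.3%). For PH against MF, 1 of 5 was higher on PH and 2 lower (all genes: 30.9% and 25.4%). For iHep against PH, 1 of 6 was higher on iHep and 3 lower (all genes: 23.2% and 35.9%). Lhx8, known in neurons and oocytes, was at -1.74 on MF and not above background on iHep at -9.59 or on PH at -9.20. It was at least 48.1-fold lower on iHep than on MF and at least 35.7-fold lower on PH than on MF. Lhx6, a factor of interneurons and jaw mesenchyme, was at -1.58 on iHep, -1.52 on PH and 1.38 on MF, which was 7.77-fold lower on iHep than on MF. A second Lhx6 probe gave the opposite order, at -2.43 on iHep, -0.97 on PH and -3.40 on MF, so the direction for Lhx6 is not settled by these data.

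Lhx2 was at -6.97 on iHep, -2.78 on PH and -6.53 on MF, not above background on MF. It was 18.2-fold lower on iHep than on PH, and at least 11.5-fold higher on PH than on MF, or 0.56 on the log2 scale under normexp. The hepatic stellate list was above background in 5 of 8 genes on iHep, 8 of 8 on PH and 5 of 8 on MF, summing to -2.31, 1.98 and 1.84, with 6 genes at least 2-fold higher and 2 lower on PH than on MF. Lrat, which marks quiescent stellate cells, was at 0.02 on PH and not above background on iHep or MF. The 2 lower genes were Des, at -4.33 on iHep, -5.40 on PH and -1.34 on MF, and Ngfr, at -4.85 on iHep, -1.45 on PH and 1.59 on MF, and most of the MF sum came from Ngfr. The part of stellate cells in the Lhx2 reading was not tested. Lhx3, a pituitary factor, was at -5.75 on iHep, -2.28 on PH and -3.07 on MF, 6.43-fold lower on iHep than on MF, and Lhx1, a kidney and head organizer factor, was at -5.48 on iHep, -5.05 on PH and -5.84 on MF. Under normexp the log2 difference of iHep over MF for Lhx1 was -1.61, against 0.36 in the main setting. The part of the normexp offset in that change was not tested. Lhx9, a gonad factor, was 9.68-fold lower on iHep than on PH by its main probe, at -6.53 on iHep and -3.25 on PH. In the authors' deposited table of values the log2 difference for Lhx9 was -0.04. The brightest probe was chosen again from the fewer probes of that table, so that value may come from another probe. Lhx5, a forebrain factor, was above background on iHep alone, at -5.71, with -9.16 on PH and -7.21 on MF, and at least 2.27-fold higher on iHep than on PH.

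Of the sine oculis genes, 3 could be compared between iHep and MF, 1 higher and 1 lower (all genes: 20.0% and 23.3%). Between iHep and PH 4 could be compared, 2 higher and 1 lower (all genes: 23.2% and 35.9%). Six4, which acts in muscle and kidney development, was at -1.82 on iHep, -5.89 on PH and -3.31 on MF, 16.8-fold higher than on PH and 2.79-fold higher than on MF (0.58 on the log2 scale under normexp). Six5 was lower on iHep, at -3.0, than on PH at -1.31 or on MF at -0.95, by 3.23-fold and 4.14-fold. Six2, a factor of nephron progenitors, was above background on PH alone, at -6.67, with -8.07 on iHep and -8.55 on MF.

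The TALE genes Meis1, Meis2, Meis3, Pbx2, Pbx3 and Pbx4 were above background on all 3 arrays. Meis1 was at 0.30 on iHep, -0.11 on PH and 0.49 on MF, and Meis2 at 0.43 on iHep, 0.79 on PH and 0.56 on MF. Neither Meis1 nor Meis2 differed by 2-fold in any comparison, while Meis3 was 3.54-fold lower on iHep than on PH, at -0.09 on iHep, 1.73 on PH and 0.83 on MF. With the mean of its 3 probes that log2 difference was -0.28, so the Meis3 order depends on the probe.

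Pbx2, Pbx3 and Pbx4 were at least 2-fold lower on iHep than on MF. Pbx2 was at -0.98 on iHep, -1.68 on PH and 0.04 on MF, 2.03-fold lower on iHep, which fell just short of 2-fold under quantile normalization (log2 difference -0.95). Pbx3 was at -1.28 on iHep, -2.05 on PH and 0.00 on MF, 2.43-fold lower, and Pbx4 at -6.73 on iHep, -5.53 on PH and -4.35 on MF, 5.21-fold lower.

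**Figure D4:**
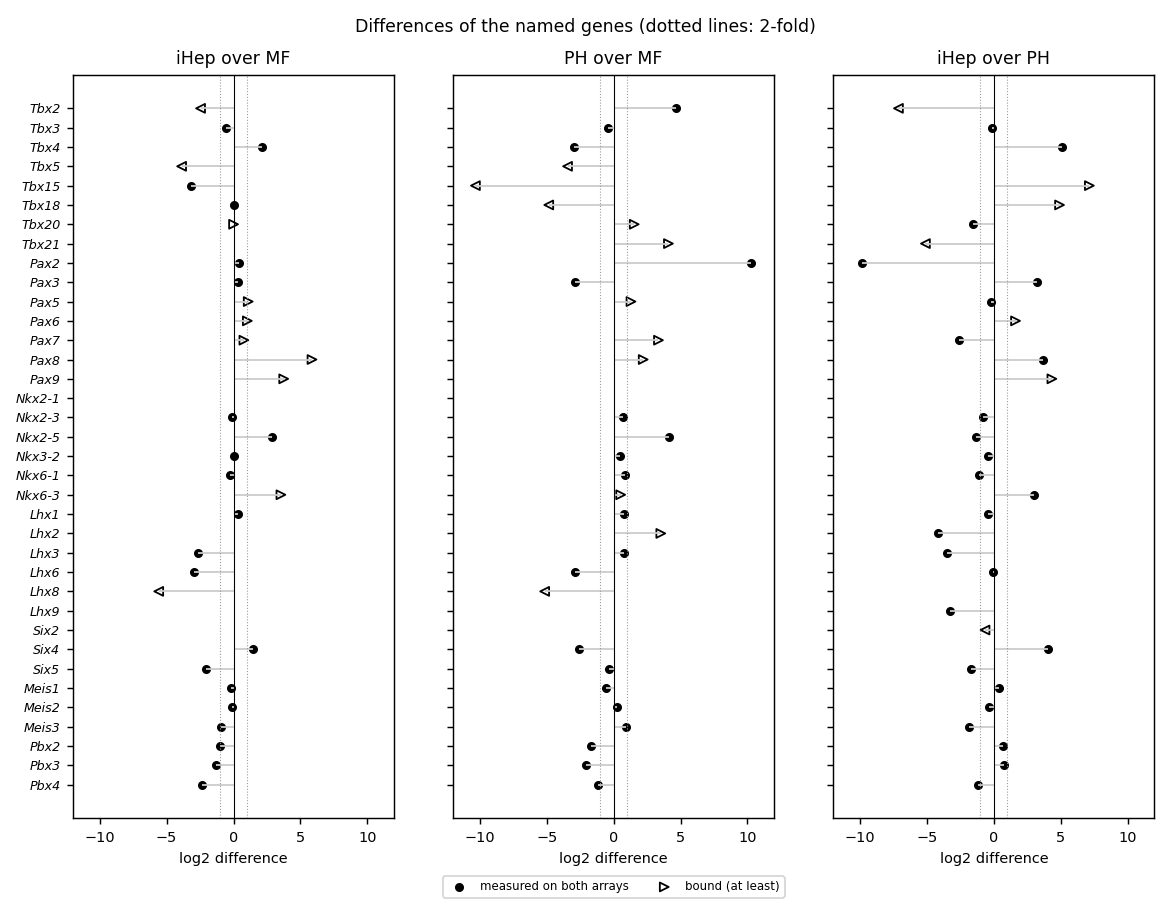
Log2 difference (horizontal axis) of 36 named genes in each of the 3 comparisons, with filled circles for genes measured on both arrays and open triangles for bounds. Dotted lines mark 2-fold; Pax2 lies furthest right for PH over MF and furthest left for iHep over PH, and Pbx2, Pbx3 and Pbx4 lie left of 0 in the comparison of iHep with MF.

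Where a gene had at least 2 probes that could be compared, the probes were set side by side. A gene was counted as split where 1 probe was at least 2-fold higher and another at least 2-fold lower. For iHep over MF, 0 of 9 genes met that rule, though the Lhx6 probes lay on opposite sides of 0, with log2 differences of 0.97 and -2.96. For PH over MF, 3 of 8 were split, which were Lhx6, Lhx9 and Nkx1-2, and for iHep over PH, 3 of 11 were, Meis3 and Nkx1-2 among them.

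**Figure D5:**
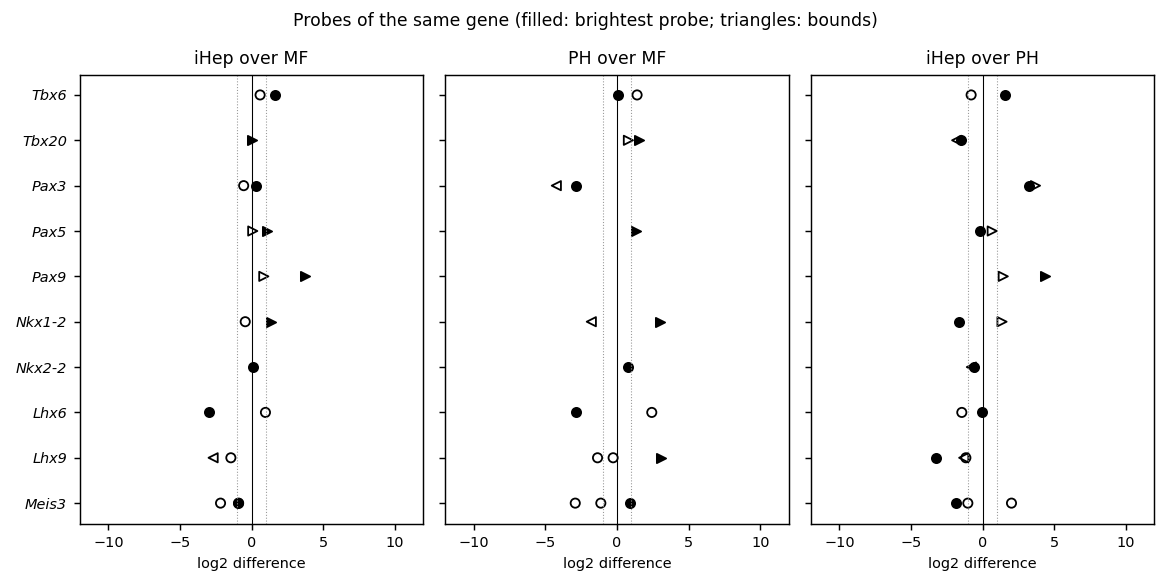
Log2 difference of each compared probe (horizontal axis) for 10 genes with at least 2 such probes, in the 3 comparisons, with the main probe marked apart from the others. Points of 1 gene lie on both sides of 0 for Lhx6 and Meis3 among others.

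Relatives and partners of these families were read from lists chosen with earlier results of these data known, and are described by counts beside the background shares above. Among 11 other TALE genes, 3 were at least 2-fold higher and 4 lower on iHep than on MF, and the median log2 difference was -0.10. Irx1 was at -6.14 on iHep, -3.61 on PH and 3.26 on MF, and Irx3 was not above background on iHep at -9.61, with -5.40 on PH and -0.48 on MF. Irx6 and Mkx were higher on iHep than on MF, at -2.64 and -2.24 on iHep against -4.51 and -3.88 on MF.

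Of 12 compared LIM relatives and cofactors, 3 were higher and 4 lower on iHep than on MF. Lmx1a, a dopaminergic neuron factor, was at 0.36 on iHep and not above background on PH at -8.38 or on MF at -6.64. Isl2 was at -2.59 on iHep and -5.37 on MF, and Ldb2, the LIM-binding adaptor, at -5.83 on iHep, -0.33 on PH and -3.56 on MF. Of 11 paired-type relatives with a comparison, 2 were higher and 6 lower on iHep, and their median log2 difference was -1.83. Prrx2, a mesenchymal homeobox gene, was not above background on iHep at -8.13, with -5.66 on PH and 2.73 on MF, and Otx2, a forebrain factor, was at -3.99 on iHep, -4.37 on PH and -5.35 on MF.

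Among the 6 EYA and DACH partners of sine oculis proteins, 5 were compared between iHep and MF, 1 higher and 2 lower. Eya1, a phosphatase and coactivator, was at 4.60 on iHep, 6.05 on PH and 4.88 on MF, and Eya2 was at -2.38 on iHep, -2.11 on PH and -4.85 on MF. Dach1 was not above background on iHep at -8.34, with -5.82 on PH and -3.76 on MF. Of 14 NK-class relatives compared, 5 were higher and 3 lower on iHep than on MF. Dlx4 was at -1.0 on iHep, -5.30 on PH and -3.66 on MF, and Vax2 at 2.40 on iHep, 4.59 on PH and 0.42 on MF. Emx2 ran the other way, at -4.75 on iHep, -7.21 on PH, not above background, and -0.06 on MF. Barx1, whose levels are given below, was at least 25.8-fold lower on iHep than on MF. The 4 T-box relatives had 1 higher and 1 lower on iHep than on MF.

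Of the spleen-field regulators outside the families, 3 of 6 could be compared between iHep and MF, 0 higher and 2 lower. Wt1, a factor of the spleen mesothelium, was at -7.11 on iHep, -0.84 on PH and 0.15 on MF, and Barx1 was not above background on iHep at -9.37, with -4.56 on PH and -2.63 on MF. Tlx1, which is needed in mouse for a spleen to form, was above background on PH alone, at -5.50, and the orphan receptor Nr2f2 differed little between iHep and MF, at -0.14 and -0.55.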

How the data were processed

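Gene expression was measured with 1 Agilent single-colour (Cy3) array per group of pooled RNA. The scanner files deposited hold spot intensity values, background-subtracted and detrended within each array by Agilent Feature Extraction 11.0.1.1, per the file headers, whereas the submitters' processing notes name version 9.1. The headers place the array design on mm9. The labels' extraction protocol describes a blood RNA kit with globin reduction. The authors' deposited table of log2 values, whose scale and centring are unstated, was used as an alternative; it correlated with the scanner values at 0.998 (iHep), 0.994 (PH) and 0.997 (MF), and its column medians were 7.01, 7.07 and 7.02.

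Outlier spots (230, 383 and 190 of 43020 on iHep, PH and MF) were left out, and none of the spots was saturated. Values of replicate spots were averaged, probes were named through RefSeq accessions (27234 probes, 69.1%, had 1 symbol and 12195 had none), and the probe with the highest mean level stood for a gene. Genes were counted at 2-fold. The members, gene lists and tests were chosen with earlier results of these data known. Given with values were members at least 8-fold different and a list of 31 anchors; others are given by count or named after their values were seen, and a few genes are not reported here. Alternatives, including settings added after seeing the data for the array of highest level, are in the closing section; the normexp background correction (offset 50) used median signals in place of the planned mean signals. Calculations used Python 3.11.15 with numpy 2.4.6 and pandas 2.3.3, and limma 3.58.1 in R 4.3.3, and were tested on simulated data. The number of arrays limits the precision.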

Additional observations from a re-analysis of the deposited data

How the results depend on the processing

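Alternatives replaced 1 step each, except that normexp also starts from median signals and the authors' values cover fewer probes. The brightest probe of a gene was chosen again from the authors' values, so it may differ from the main probe. The count of genes at least 2-fold higher on iHep than on MF was 3 under normexp background correction, where 20 were lower, against 10 and 13; over all genes the shares there were 11.9% and 30.4%. Under normexp 4 genes were higher on PH than on MF (18.0% of all genes), under quantile normalization 7 (23.8%), in the authors' values 5 of 34 (23.0%), and at a 1.5-fold threshold 19 (38.2%), against 12 (30.9%). In the authors' values 8 of 35 were lower on iHep than on PH (24.4% of all genes), against 20 (35.9%), and 12 of 37 were highest on PH, against 25 of 51. A main probe above background on all arrays was found for 26 genes, while the 28 given earlier counted any probe. Of the 26, 4 were higher and 8 lower on iHep than on MF, and 2 higher and 9 lower on PH than on MF. Between iHep and PH, 6 were higher and 9 lower on iHep. The highest level was on iHep for 5, against 11 of 51, and on PH for 11. At a 4-fold threshold 5 were higher and 8 lower on iHep than on MF, 7 higher on PH than on MF, and 11 lower on iHep than on PH. The shares of all genes are not given for either of these settings, so their counts are not a result about the families. Among named differences past 2-fold, Nkx6-1 alone changed direction, between iHep and PH, with a log2 difference of 0.0021 under quantile normalization and 0.019 in the authors' values, against -1.11. Of 650 gene differences, 555 moved by less than the SD between probes, 93 moved by more and 2 were counted as reversed. Those 2 leave out Lhx1 and Nkx3-2, whose differences between iHep and MF, below 2-fold in the main setting, changed sign under normexp. The causes were not tested. The median of all genes was -0.20 under normexp and 0.04 under quantile normalization when iHep was set against MF, -0.15 and -0.12 when PH was set against MF, and -0.38 and 0.19 when iHep was set against PH. Bounds and readings near background are limited by the signal over background. No paired analysis was possible because each group has 1 array and the labels number no replicates.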

Other observations

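Some members are neighbours in the genome, with no protein-coding gene between them in the RefSeq table of assembly GRCm38.p6, used for gene order alone. Tbx2 and Tbx4 are such neighbours and ran in opposite directions between iHep and PH, with Tbx2 at least 140-fold lower on iHep and Tbx4 34.5-fold higher. Tbx3 and Tbx5 are neighbours too, and Tbx3 differed by less than 2-fold in every comparison while Tbx5 was above background on MF alone. Pax9 was above background on iHep alone, and Nkx2-1, the next but one member beside it past Nkx2-9, was above background on no array.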
